A study of Mus musculus with 8 samples.

Results

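The addition of IL-2v to PD1d/IL-33 adoptive cell therapy (ACT) was examined in tumor leukocytes collected on day 12 after transfer. A single library of tumors from mice that had received OT1 cells engineered for PD1d/IL-2v/IL-33 was compared with a single library from mice whose OT1 cells lacked the IL-2v module (PD1d/IL-33). Cells with 500 to 6000 detected genes, 2000 to 40000 unique molecular identifiers (UMIs, each standing for a captured mRNA molecule) and less than 10% of UMIs from mitochondrial genes were used. These were 1665 cells of the PD1d/IL-2v/IL-33 library and 768 of the PD1d/IL-33 library, together 2433 of 13046 such cells in the 8 libraries of the series.

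The mice of both libraries were C57BL/6, injected with B16-OVA melanoma cells at 7 weeks of age and given 2 infusions of OT1 cells, on days 12 and 15 after tumor injection, without lymphodepletion. OT1 cells are CD8+ T cells whose transgenic receptor recognises an ovalbumin peptide. Donor cells were transduced with a pMSGV1 retrovirus, and both libraries compared here carry PD1d, a decoy made of the PD-1 ectodomain and the Fc part of human IgG4, which binds PD-L1. In the PD1d/IL-33 arm every engineered cell carried PD1d with IL-33. In the PD1d/IL-2v/IL-33 arm an equal mixture of cells with PD1d and IL-2v and cells with PD1d and IL-33 was transferred. Per the study's methods the number of transduced cells was matched between groups, so that this arm received fewer cells with IL-33. The addition of IL-2v and the lower dose of IL-33 cells cannot be told apart here. CD45+ leukocytes were sorted from the pooled tumors of 5 mice a condition, with enrichment for CD8+ cells, and their mRNA 5′ ends were counted on the 10x Genomics platform. No condition was repeated, so that no test of a condition was possible: intervals are 95% intervals of counting error within these 2 libraries and contain no variation between mice. Those of gene levels and ratios treat each UMI as independent, and so leave out variation between cells too. They are too narrow where a few cells hold many UMIs of a gene. Transferred and endogenous CD8+ T cells cannot be told apart in these counts. The day 12 libraries of PD1d/IL-2v OT1 cells (2033 cells) and untransduced OT1 cells (203 cells) are given beside some values for orientation.

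IL-2 signals through a receptor with beta and gamma chains, shared with IL-15, and T cells raise its affinity by adding the alpha chain, CD25. The bound receptor activates JAK1, JAK3 and STAT5, and STAT5 induces genes such as Cish, Socs2 and Il2ra itself. IL-2v is a variant that leaves the alpha chain unbound and so acts on the beta and gamma chains, which CD8+ T cells and NK cells carry in large numbers. IL-33 is an alarmin read by the receptor ST2 (gene Il1rl1) on regulatory T cells, type 2 helper T cells, type 2 innate lymphoid cells and some myeloid and effector cells, where it induces IL-5, IL-13 and amphiregulin.

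The libraries differed in depth. The PD1d/IL-2v/IL-33 library held 14981578 UMIs in 2500 barcodes and the PD1d/IL-33 library 4810085 in 1500, and 66.6% and 51.2% of barcodes passed the filters with a median of 6789 and 4799 UMIs. Of the barcodes that passed, 1 was shared by both libraries. In the aggregation record these libraries carry different codes (NXT0352 and NXT0356). The untransduced day 12 library shares NXT0352 with PD1d/IL-2v/IL-33, and the PD1d/IL-2v day 12 library shares NXT0356 with PD1d/IL-33. What the codes stand for is not stated, and code and group cannot be told apart in this comparison. In every cell class below, the nuclear RNA Malat1 was lower in the PD1d/IL-2v/IL-33 library (in CD8+ T cells 1574 against 3839 CPM, the UMIs of a gene scaled to 1000000 UMIs of the class), with log2 ratios between −1.42 and −1.21. Malat1 in CD8+ T cells was 4073 CPM in the untransduced and 2078 CPM in the PD1d/IL-2v day 12 library. Over all passing cells, ribosomal protein genes held a median of 31.4% of UMIs per cell in the PD1d/IL-2v/IL-33 library against 26.9% in the PD1d/IL-33 library. In myeloid cells the medians were 18.4% and 19.2%. The part of depth and of these differences in the results was not tested.

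The intervals of the CD8+ T, NK, CD4+ T and myeloid shares each overlapped between the 2 libraries, which does not show that the shares were alike. Those of the scarce neutrophils, given below, did not overlap. Cells were classed by fixed marker genes (gates in the plots). CD8+ T cells, called by a CD3 chain with Cd8a or Cd8b1 and no Cd4, numbered 733 (44.0%, 41.6 to 46.4%) in the PD1d/IL-2v/IL-33 library and 370 (48.2%, 44.6 to 51.8%) in the PD1d/IL-33 library. NK cells, called by Ncr1 or Klrb1c without CD3, were 296 (17.8%, 16.0 to 19.7%) and 121 (15.8%, 13.2 to 18.5%). CD4+ T cells were 122 (7.33%, 6.12 to 8.69%) and 80 (10.4%, 8.35 to 12.8%), so that 6.01 CD8+ T cells were counted per CD4+ T cell with IL-2v and 4.63 without it. The enrichment for CD8+ cells in the sort bears on each of these shares. The same ratio was 3.27 with PD1d/IL-2v cells and 1.27 with untransduced cells.

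Myeloid cells, called by at least 0.5% of UMIs from 10 macrophage and monocyte genes, were 131 (7.87%, 6.62 to 9.27%) against 45 (5.86%, 4.31 to 7.76%). Their split was into cells rich in complement C1q genes, a feature of mature tissue macrophages, cells low in C1q, and dendritic cells. C1q-high cells were 32 of 131 (24.4%, 17.3 to 32.7%) with IL-2v and 5 of 45 (11.1%, 3.71 to 24.1%) without. C1q-low cells were 58.8% and 62.2% and dendritic cells 16.8% and 26.7% of the class. Neutrophils were found in the PD1d/IL-2v/IL-33 library (17 of 1665, 1.02%) and none was called in the other (0 of 768, which allows a share of called cells of up to 0.391% by a floor of 3 counts). Since a cell with few UMIs can miss a marker, the classes were also called with every cell thinned to 2000 UMIs. CD8+ T cells were then 38.4% and 43.5%, NK cells 12.8% and 14.5%, CD4+ T cells 4.92% and 7.42%, and myeloid cells 7.93% and 5.60%, so that the order of the NK shares turned and the others stayed. Cells without a class were 6.19% and 3.65%, and 15.6% (13.8 to 17.4%) and 7.42% (5.67 to 9.51%) after thinning, where the intervals did not overlap.

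**Figure D1:**
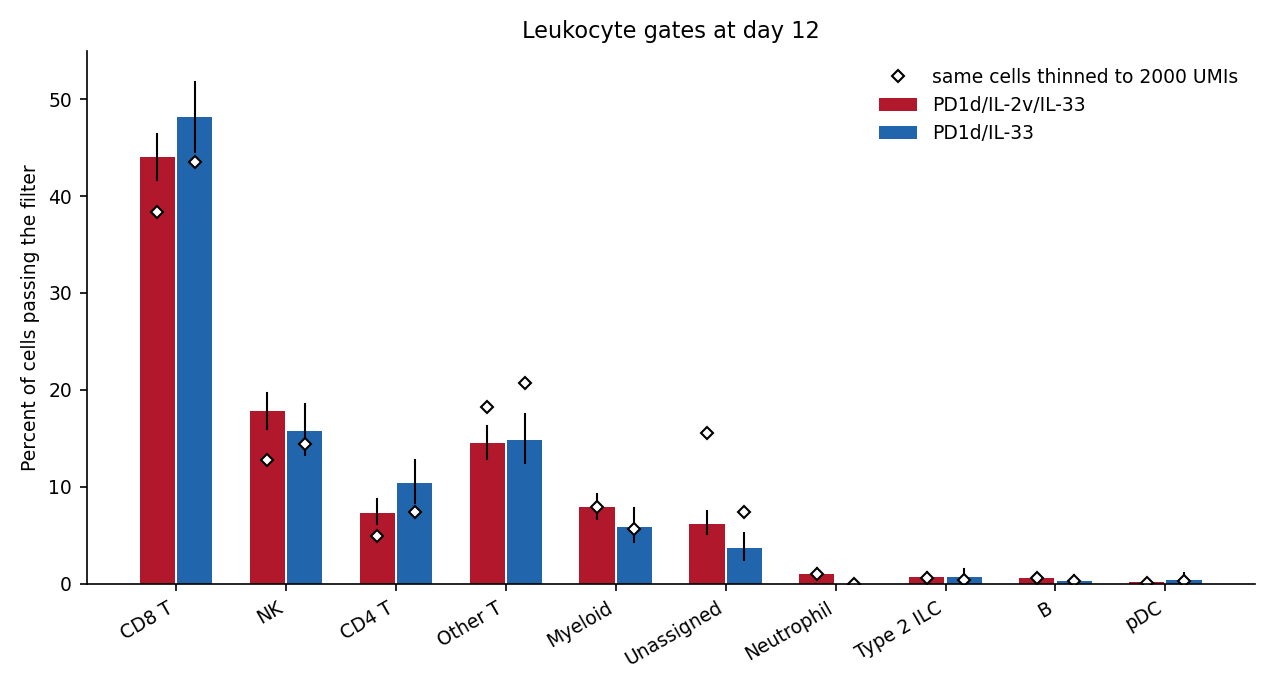
Composition of the PD1d/IL-2v/IL-33 and PD1d/IL-33 libraries at day 12. Bars and the y axis give the percent of passing cells in each class, lines are 95% Clopper-Pearson intervals, and diamonds are the shares with cells thinned to 2000 UMIs. CD8+ T cells make up 44.0% of the PD1d/IL-2v/IL-33 library and 48.2% of the PD1d/IL-33 library, CD4+ T cells 7.33% and 10.4%, and myeloid cells 7.87% and 5.86%.

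Markers beside the classing rules were measured in each class. In the CD8+ T cell class the summed level of 6 further T cell genes (such as Lck and Thy1) was 2135 CPM with IL-2v and 2531 without, that of 7 further NK genes (such as Eomes and Klra4) 197 and 300 CPM, and that of 7 further myeloid genes (such as Ctss and Mpeg1) 374 and 168 CPM, with Spi1 at 0 in the latter. The 7 further myeloid genes include Fcer1g, whose own higher level with IL-2v in CD8+ T cells is given below. The 10 myeloid genes of the classing rule were at 183 and 163 CPM and melanoma genes at 0 and 0.90 CPM. In the NK cell class the 7 NK genes summed to 4119 and 5981 CPM, the 6 T cell genes to 1085 and 961 CPM and the 7 myeloid genes to 5131 and 6704 CPM, with Mpeg1 at 0 in both. These myeloid genes include Fcer1g and Tyrobp, adaptors that NK cells also use. In the CD4+ T cell class the T cell genes were at 2519 and 3120 CPM, the NK genes at 25.2 and 10.3 CPM and the myeloid genes at 190 and 191 CPM. In the myeloid class the 7 myeloid genes were at 9578 and 8335 CPM, the T cell genes at 23.6 and 22.1 CPM, and the NK genes, which include Tyrobp, at 3108 and 2646 CPM, with Eomes, Klra4 and Itga2 at 0 in both. Neutrophil genes reached 42.1 CPM in CD8+ T cells and 78.7 CPM in NK cells of the PD1d/IL-2v/IL-33 library, with all 3 at 0 in the PD1d/IL-33 library. The part of such cells or RNA in the results was not tested.

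CD8+ T cells of the PD1d/IL-2v/IL-33 library held granzymes C to G, interferon-induced transmembrane (Ifitm) genes, CCR7, CD25 and the IL-2 feedback gene Cish at higher levels than those of the PD1d/IL-33 library. They held less of Tox, a transcription factor of exhausted T cells, less granzyme K and less of the chemokine CCL5. Levels of PD-1 and of proliferation genes were close to each other. UMIs were summed over the cells of each class, and log2 ratios compare CPM plus 10 in the PD1d/IL-2v/IL-33 library with the same in the PD1d/IL-33 library. A gene was compared where both libraries together held at least 50 of its UMIs. It was counted as higher or lower from a log2 ratio of 1 or −1, called 2-fold below. Because 10 CPM is added on both sides, a scarce gene needs a larger difference in CPM itself to reach this. A gene not counted can therefore differ by more than a factor of 2 in CPM. Of 8426 genes, 101 were higher (1.2%) and 44 lower (0.522%) by this rule, with a median log2 ratio of −0.08 over all genes. Scaling by TMM factors moved the median to 0.02 and gave 137 higher and 29 lower. A gene that reached 50 UMIs through the library where it was high had to differ, so that counts over the compared genes describe these libraries only.

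Granzymes C to G were among the 8 highest ratios of the genes named by rule, with Ifitm2, Ifitm1 and Spp1. Granzymes are serine proteases that killer cells release into their targets. Granzymes C to G are a cluster of related genes beside Gzmb on chromosome 14 (from Gzme at 56117619 to Gzmb, ending at 56262334, in GRCm38.p6). Whether reads were shared between similar members was not tested, so that values of single members are uncertain to that extent. Gzmf stood at 1083 CPM with IL-2v (7519 UMIs in 109 of 733 cells, 26.1% of them in a single cell) and 5.85 CPM without (13 UMIs in 4 of 370 cells), a log2 ratio of 6.11 (5.77 to 6.38). Gzmc stood at 807 CPM (171 cells) and 3.60 CPM (5 cells), a log2 ratio of 5.91 (5.58 to 6.15). No UMI of Gzmd, Gzme or Gzmg was found without IL-2v, while with it they reached 307, 147 and 134 CPM, at least 228-fold, 109-fold and 98.9-fold higher against a floor of 3 UMIs.

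In the other day 12 libraries Gzmc was intermediate with PD1d/IL-2v cells (303 CPM) and low with untransduced cells (25.4 CPM). The better-known members of the family differed little. Gzmb was 1218 and 761 CPM (log2 ratio 0.67, 0.60 to 0.75), Gzma 1371 and 1264 CPM (0.12, 0.06 to 0.18), and the pore-forming Prf1 97.9 and 76.1 CPM (0.33, 0.11 to 0.55). Gzmk, a granzyme of memory-like and pre-exhausted T cells, went the other way, with 114 and 509 CPM (−2.06, −2.18 to −1.93). Of the 22 cytotoxic genes, all compared, 5 were higher (Gzmc to Gzmg), 1 was lower (Gzmk), and the median log2 ratio was 0.31.

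At an equal depth of 2000 UMIs, Gzmc was detected in 14.2% of CD8+ T cells with IL-2v (11.7 to 16.9%; 23.3% unthinned) and 0.811% without (0.168 to 2.35%; 1.35% unthinned), against none of the thinned myeloid cells of either library, which should lack it. Gzmk was detected in 19.9% and 51.9%. Gzmf and Gzmc tended to be in the same cells, since Gzmf was found in 49.0% of the 104 thinned cells with Gzmc and in 3.66% of the 629 without. Thinned cells with Gzmf held Gzmk (4 of 74, 5.41%, against 21.5% of the other cells) and Tox (1 of 74, 1.35% against 6.37%) less often. Unthinned, Gzmk was in 23 of 109 cells with Gzmf (21.1% against 37.7%) and Tox in 9 of 109 (8.26% against 16.7%).

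Genes of the Ifitm family were also higher, Ifitm2 (675 and 8.55 CPM, log2 ratio 5.21, 4.87 to 5.50), Ifitm1 (625 and 10.8 CPM, 4.93) and Ifitm3 (228 and 6.75 CPM, 3.83). These small membrane proteins limit virus entry and are encoded side by side on chromosome 7. They shared cells with the granzymes, with Ifitm2 in 78.4% of the 74 thinned cells with Gzmf and in 14.7% of the 659 others. As a group, the type I interferon-stimulated genes lay near a ratio of 0. Of 24 compared, 4 were higher (Ifitm1, Ifitm2, Ifitm3 and Plac8) and none lower, and the median was 0.06. Untransduced cells had 54.5 CPM of Ifitm2, all in 1 of 42 cells, and PD1d/IL-2v cells 59.3 CPM, in 69 of 573 cells. Ifitm1 and Ifitm3 were at 0 CPM in untransduced cells and at 166 and 28.4 CPM in PD1d/IL-2v cells.

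Genes of the IL-2 pathway were described from a list of 18 receptor chains, kinases, STAT5 targets and lymphotoxins. Of 17 compared, 4 were higher (Il2ra, Cish, Socs2 and Lta) and none lower, with a median of 0.26. Il2ra, encoding CD25, was 75.6 CPM with IL-2v and 19.8 CPM without (log2 ratio 1.52, 1.21 to 1.83), and was 67.6 CPM with PD1d/IL-2v and 14.5 CPM with untransduced cells. The chains that IL-2v binds differed by less, with Il2rb at 388 and 267 CPM (0.52, 0.40 to 0.65) and Il2rg at a log2 ratio of −0.06. Cish, which encodes a SOCS-family inhibitor of the IL-2 receptor, was 124 and 48.6 CPM (1.19, 0.94 to 1.44), and at equal depth was seen in 19.8% and 6.76% of cells. Socs2, a relative of Cish, was 37.3 and 5.85 CPM (1.58, 1.21 to 1.88) and Lta, encoding lymphotoxin alpha, 25.2 and 6.30 CPM (1.11, 0.74 to 1.43). The survival gene Bcl2 was 261 and 158 CPM (0.69, 0.53 to 0.85), and Myc, a driver of growth, was 13.5 and 36.5 CPM (−0.98, −1.28 to −0.67). With the narrower cell filter of the study's later experiment the log2 ratio of Il2ra was 0.80, and without cycling cells that of Cish was 0.93 and that of Lta 0.76, each short of 2-fold.

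STAT5 binds pairs of TTC and GAA spaced by 3 bases. The start of Cish is shown because it holds 2 such motifs (TTCNNNGAA, which reads alike on both strands), in capitals, in the first bases around the annotated transcription start, on the plus strand of chr9:107296654-107296683 (RefSeq, GRCm38.p6), 5′ to 3′.
Cish: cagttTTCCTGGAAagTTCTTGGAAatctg
The motif was found in 2726 of 32851 promoter windows of 250 bases before to 50 after a start (8.3%), and in 4 of the 18 windows of the IL-2 list (22.2%), those of Cish, Lta, Ltb and Socs3. Of these genes Ltb (275 and 334 CPM, −0.27) and Socs3 (41.9 and 32.4 CPM, 0.29) did not reach 2-fold. Il2ra and Socs2, which did, were not among the genes holding the motif. Windows were at hand for 15 of the 18 listed genes. Known STAT5 targets were put on the list by choice, so that its share of motifs is no result of these data. No window of Gzmc, Gzmd, Gzme, Gzmf or Gzmg held these letters.

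Receptors and factors of exhaustion were unevenly different. Tox was 27.9 CPM with IL-2v and 167 CPM without (log2 ratio −2.23, −2.43 to −2.02), and 66.7 and 83.5 CPM with PD1d/IL-2v and untransduced cells. At equal depth it was detected in 5.87% and 27.0% of CD8+ T cells. Tigit, an inhibitory receptor for CD155, was 108 and 226 CPM (−1.0, −1.16 to −0.85) and fell short of 2-fold in 5 alternative settings. Pdcd1, encoding PD-1, was 228 and 226 CPM (0.01, −0.13 to 0.15), Ctla4 142 and 137 CPM (0.04, −0.13 to 0.22), Lag3 113 and 90.9 CPM (0.29, 0.08 to 0.49) and Havcr2, encoding TIM-3, 52.4 and 37.8 CPM (0.38, 0.11 to 0.67). Of the 18 list members compared, 2 were lower (Tox and Tigit), none was higher, and the median was −0.04.

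Memory-associated genes did not move as a group. Ccr7, the homing receptor for lymph nodes, was 107 and 14.4 CPM (2.27, 1.94 to 2.58), although PD1d/IL-2v and untransduced cells had more (217 and 319 CPM). It was less frequent in cells with Gzmf, with Ccr7 in 3 of 74 thinned cells with Gzmf (4.05%) and 11.7% of the others. Unthinned, these shares were 11.0% and 20.5%. Satb1, a chromatin organiser of early T cells, was 201 and 91.4 CPM (1.06). Tcf7, encoding TCF1, was 49.3 and 66.2 CPM (−0.36, −0.60 to −0.12) and Il7r 35.3 and 36.9 CPM. Slamf6 (18.0 and 56.3 CPM, −1.24), the exit receptor S1pr1 (22.0 and 63.5 CPM, −1.20) and its regulators Klf2 (64.7 and 140 CPM, −1.01) and Klf3 (26.8 and 82.4 CPM, −1.33) were lower, so that of 14 genes compared 2 were higher and 4 lower, with a median of −0.22.

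Secreted and homing molecules differed in both directions. Ccl5, a chemokine stored by effector cells, was 4280 CPM with IL-2v and 13232 CPM without (−1.63, −1.65 to −1.60), against 4719 and 4422 CPM in the other libraries, so that the PD1d/IL-33 library was the one set apart. Ccl4 was 403 and 893 CPM (−1.13, −1.21 to −1.05), and came to −0.42 with the narrower cell filter. Spp1, encoding osteopontin, was 200 and 3.60 CPM (3.95, 3.61 to 4.19), with 238 and 123 CPM in PD1d/IL-2v and untransduced cells. Csf2 (28.9 and 7.20 CPM, 1.18) and Tnfsf11, encoding RANKL (48.1 and 8.10 CPM, 1.68), were also higher. Ifng was 135 and 102 CPM (0.37, 0.18 to 0.57). The integrin chain Itga4 (94.0 and 379 CPM, −1.90, −2.04 to −1.76), the chemokine receptor Cxcr3 (47.4 and 125 CPM, −1.24) and the transcription factor Eomes (49.1 and 127 CPM, −1.22) were lower. Of the receptors for costimulation, Tnfrsf9, encoding 4-1BB, was higher (492 and 146 CPM, 1.69, 1.53 to 1.84), as the sole one of 11 compared.

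Of 17 NK receptor and adaptor genes compared in CD8+ T cells, 3 were higher and none lower, 9 had a positive and 8 a negative ratio, and the median was 0.02. Fcer1g, an adaptor of NK receptors, was 271 and 49.5 CPM (2.24, 2.00 to 2.48), Klrb1c, encoding NK1.1, 29.5 and 5.40 CPM (1.36), and Kit 26.1 and 2.25 CPM (1.56). Anxa1 (74.2 and 2.70 CPM, 2.73), AA467197 (194 and 23.4 CPM, 2.61) and the lectin Lgals3 (836 and 241 CPM, 1.75) were further members of the higher group. Of 18 immediate early and heat shock genes 3 were lower and none higher, with a median near 0 (9 positive and 9 negative). The lower ones included Hspa1a at 78.2 and 263 CPM (−1.63) and Hspa1b at 73.7 and 255 CPM (−1.66). Esm1, Mt3, Lpin1 and Vmp1 were lower with log2 ratios from −1.52 to −1.29. None of 32 cell cycle genes reached 2-fold (median −0.02, Mki67 60.6 and 66.2 CPM). None of 16 glycolysis genes did so either, although 15 had a positive ratio and the median was 0.42. IL-33 receptor and type 2 genes were scarce in these cells, with 6 of 14 compared, none at 2-fold and a median of 0.03.

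**Figure D2:**
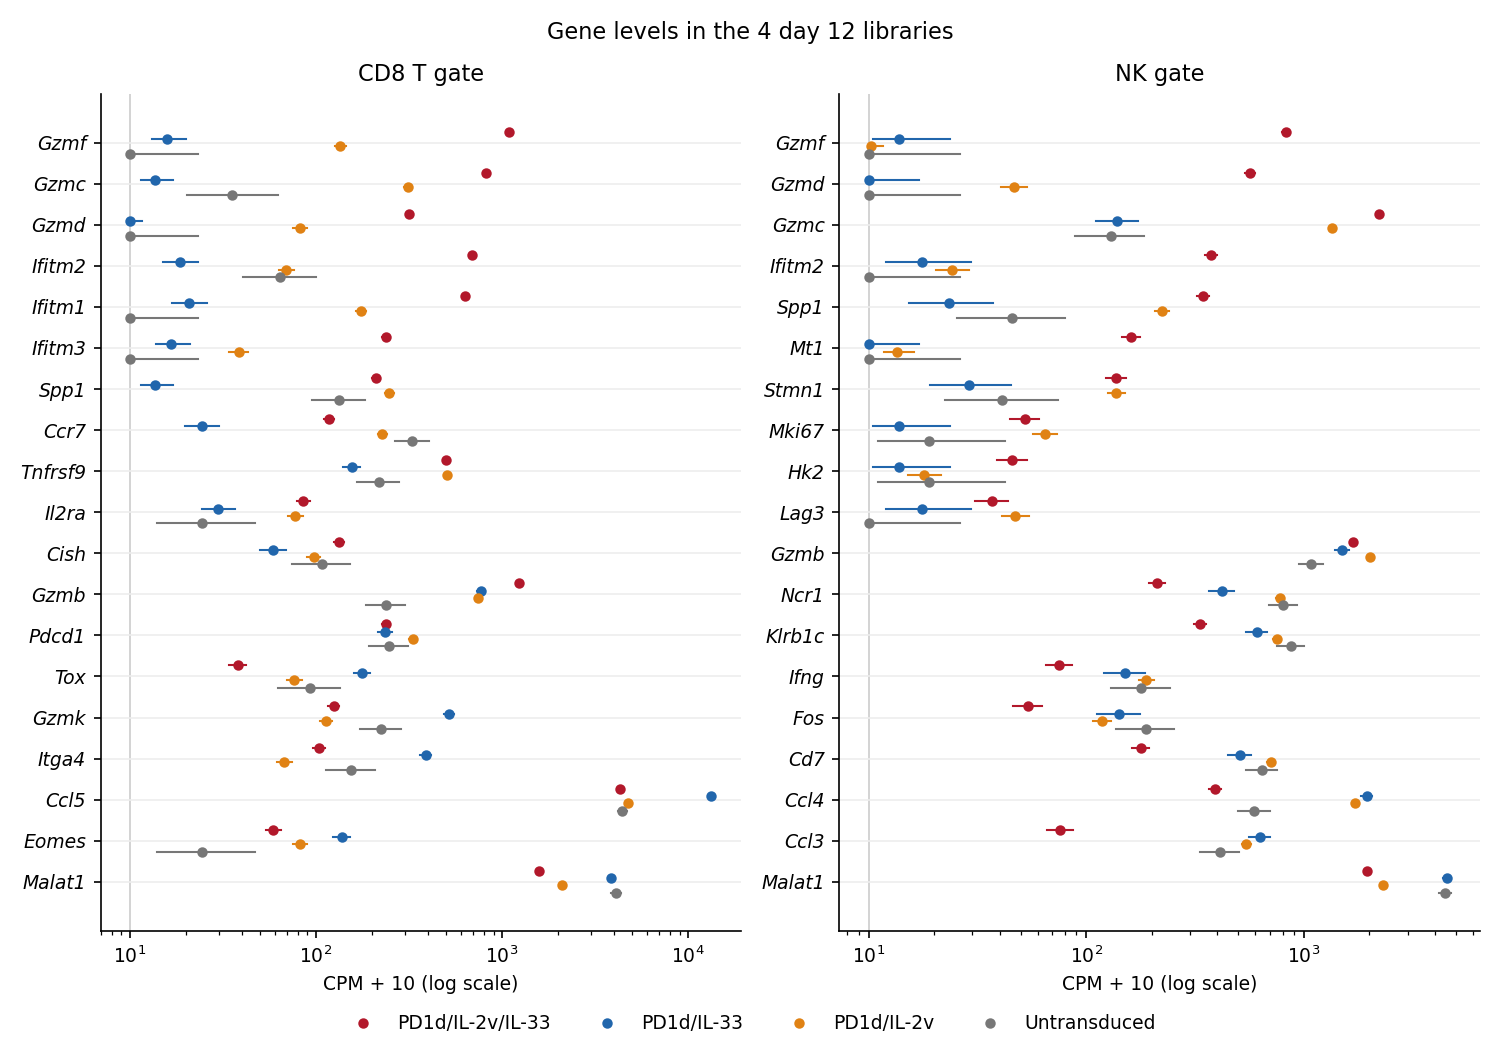
Levels of selected genes in CD8+ T cells and NK cells of the 4 day 12 libraries. The x axis is CPM plus 10 on a log scale, points are libraries and bars are 95% Poisson intervals. Gzmf in CD8+ T cells lies at 1083 CPM with PD1d/IL-2v/IL-33 and 5.85 CPM with PD1d/IL-33, Tox lies at 27.9 and 167 CPM, and Pdcd1 at 228 and 226 CPM.

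In the narrower cell filter the log2 ratios of Gzmf, Gzmc and Ifitm2 in CD8+ T cells were 4.55, 4.19 and 3.89 and that of Ccl5 was −1.01, all still past 2-fold, and that of Fcer1g was 1.14. With the same filter S1pr1 (−0.75), Klf2 (−0.76), Cxcr3 (−0.96), Mt3 (−0.96) and Lpin1 (−0.97) fell short of it, as did Eomes (−0.94) with cells weighted equally and Satb1 (0.97) with cells classed after thinning. Il1b, Cxcl2 and the class II gene H2-Aa also passed 2-fold in this class, but a single cell of the PD1d/IL-2v/IL-33 library held 41.7%, 55.3% and 54.7% of their UMIs.

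As in CD8+ T cells, granzymes C to G and Ifitm genes were higher in NK cells of the PD1d/IL-2v/IL-33 library. Of 21 cell cycle genes 7 were higher, and the chemokine genes Ccl3 and Ccl4 were lower. Of 5545 genes compared, 79 were higher (1.42%) and 77 lower (1.39%), with a median log2 ratio of −0.17. With TMM factors, which moved the median to 0.05, 149 were higher and 25 lower.

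Gzmc, expressed by cytokine-activated NK cells, was 2212 CPM with IL-2v (119 of 296 cells) and 129 CPM without (13 of 121), a log2 ratio of 4.0 (3.67 to 4.33). PD1d/IL-2v cells had 1345 CPM and untransduced cells 120 CPM, so that the libraries with IL-2v stood above both without. At equal depth Gzmc was detected in 30.7% (25.5 to 36.3%) and 4.96% of NK cells, and in 40.2% and 10.7% unthinned. Gzmf was 822 CPM in 19 cells, 62.1% of it in a single cell, and 3.80 CPM without IL-2v (2 UMIs), a ratio of 216 with a counting interval of 59.7 to 1784. Gzmd was 556 CPM in 41 cells and without IL-2v at 0 UMIs, at least 97.4-fold higher. With the narrower cell filter the log2 ratio of Gzmc was 2.53, and with cells classed after thinning 2.82. Gzmb (1671 and 1488 CPM, 0.17), Gzma (8465 and 10898 CPM, −0.36, −0.41 to −0.32) and Prf1 (502 and 531 CPM, −0.08, −0.26 to 0.11) differed little.

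Ifitm2 was 366 CPM in 49 cells and 7.61 CPM in 1 cell (4.42, 3.67 to 4.97), Spp1 335 and 13.3 CPM (3.89, 3.20 to 4.50), and the metallothionein Mt1, a zinc-binding protein, 150 CPM in 51 cells with no UMI in the PD1d/IL-33 library, at least 26.4-fold higher. In the other classes Ifitm2 was not higher with IL-2v, at 91.0 and 157 CPM in CD4+ T cells (−0.73, −1.20 to −0.25) and 1137 and 1605 CPM in myeloid cells (−0.49, −0.65 to −0.33). In NK cells, Lgals3 (450 and 108 CPM, 1.96), Tnfrsf9 (585 and 219 CPM, 1.38), the checkpoint receptors Ctla4 (69.4 and 17.1 CPM, 1.55) and Lag3 (26.8 and 7.61 CPM, 1.06) and the lipid droplet gene Hilpda (224 and 34.2 CPM, 2.40) were higher as well. Cxcl2, a chemokine of myeloid cells, was found in 12 NK-class cells at less than 20% of its level in the other cells of that library. It is set apart, as other cells or free RNA could give it. Cxcl3, also a chemokine of myeloid cells, was 44.2 CPM in 5 NK-class cells, 66.7% of it in 1 cell, against 79.5 CPM in the other cells. Whether other cells or free RNA gave Cxcl3 was not tested.

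Genes of the cell cycle list serve DNA replication and mitosis. Of 21 compared, 7 were higher (Mki67, Top2a, Birc5, Ube2c, Stmn1, Tuba1b and Hmgn2), none was lower, and the median was 0.71. Stmn1, a regulator of microtubules, was 127 and 19.0 CPM (2.24, 1.59 to 2.86), and Top2a, the topoisomerase of dividing cells, 58.2 and 7.61 CPM (1.95, 1.18 to 2.53). Mki67 was 42.3 and 3.80 CPM, on 109 and 2 UMIs (a ratio of 11.1, with an interval of 3.0 to 92.9). It was found in 4.73% of thinned NK cells with IL-2v and 0 of 121 without, which allows up to 2.48% of cells with a UMI at that depth by a floor of 3 counts (7.77% and 1.65% unthinned). PD1d/IL-2v NK cells had 54.7 CPM of Mki67 and untransduced NK cells 8.90 CPM. The extent depended on how the cells were classed: with classes called after thinning, 2 of the 21 genes were higher, the median was 0.42 and the log2 ratios of Mki67 and Stmn1 were 0.31 and 0.72.

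Of 16 glycolysis genes 15 had a positive ratio (median 0.38) and 2 were higher, the kinase of the first step Hk2 (35.7 and 3.80 CPM, on 92 and 2 UMIs, a ratio of 9.38 with an interval of 2.52 to 78.6) and the lactate carrier Slc16a3 (42.7 and 15.2 CPM, 1.06).

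The chemokines that NK cells release on activation were lower. Ccl3 was 65.9 CPM with IL-2v (40 of 296 cells) and 616 CPM without (31 of 121 cells, with 50% of the UMIs in 1 cell), a log2 ratio of −3.04 (−3.29 to −2.80). Ccl4 was 380 and 1935 CPM (−2.32, −2.44 to −2.19), with 1706 CPM in PD1d/IL-2v and 583 CPM in untransduced NK cells. Ccl5 was 8092 and 14852 CPM (−0.88, −0.91 to −0.84), and its log2 ratio came to −0.10 with the narrower cell filter.

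Of 26 NK receptor and adaptor genes compared, 24 had a negative ratio (median −0.62, beside −0.17 over all genes, and −0.35 with TMM factors) and 2 were lower, Klrb1a (44.6 and 116 CPM, −1.21) and the activating receptor Klrc2 (88.8 and 205 CPM, −1.12). Neither was past 2-fold with TMM factors. The list includes Ncr1 and Klrb1c, which class these cells and summed to 526 and 1006 CPM. The Ly49 receptors Klra4 (318 and 628 CPM, −0.96) and Klra8 (291 and 523 CPM, −0.83) and Eomes (173 and 308 CPM, −0.80) fell short of the threshold. Further lower genes were Cd7 (168 and 498 CPM, −1.51), Clec2d (96.9 and 302 CPM, −1.55), Gimap6 (173 and 466 CPM, −1.38), Fos (43.8 and 131 CPM, −1.39) and the death ligand Fasl (81.4 and 186 CPM, −1.10). Sntb2, Samhd1, Klra10, Sepp1, Nfkbiz and Fbxl12 had log2 ratios between −1.63 and −1.38. Cd7 (−0.92) and Nfkbiz (−0.99) fell short of 2-fold with the narrower cell filter and Fasl (−0.85) with TMM factors.

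Genes of the IL-2 list were not higher as a group in NK cells. Of 14 genes compared none was higher, 1 was lower (Ltb, 61.7 and 154 CPM, −1.20) and 13 had a negative ratio, with a median of −0.36 (−0.09 with TMM factors). Il2rb was 765 and 1022 CPM (−0.41, −0.55 to −0.27), Cish 70.6 and 53.3 CPM (0.35, −0.15 to 0.86) and Bcl2 343 and 367 CPM (−0.10, −0.32 to 0.13). The difference between the classes was not tested.

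**Figure D3:**
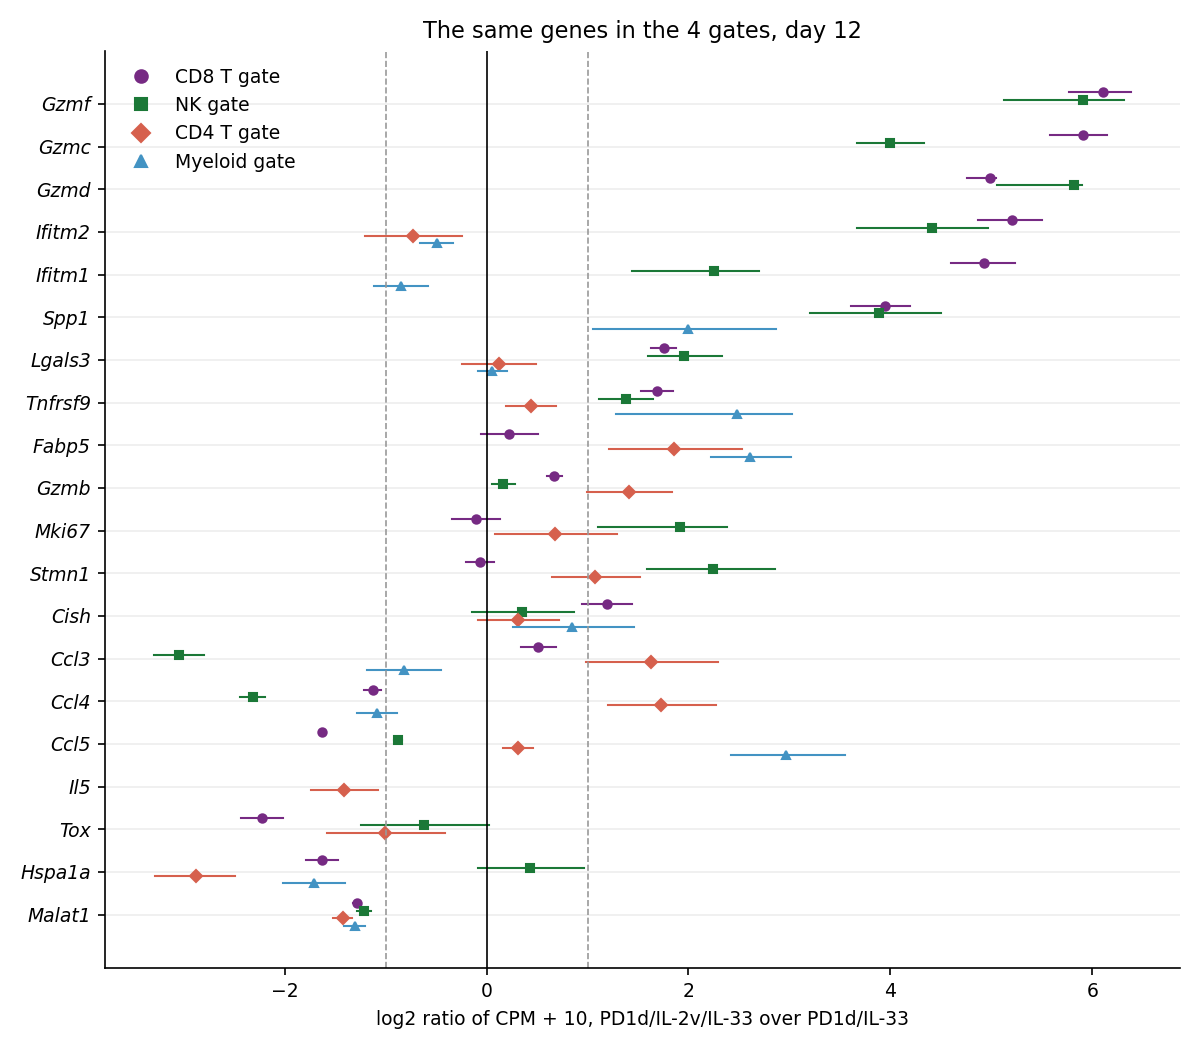
Log2 ratios (CPM plus 10) of PD1d/IL-2v/IL-33 over PD1d/IL-33 for 20 genes in CD8+ T, NK, CD4+ T and myeloid cells. Points carry 95% counting intervals and dashed lines mark a log2 ratio of 1 and −1. Gzmc lies at 5.91 in CD8+ T cells and 4.0 in NK cells, Malat1 lies below −1 in all 4 classes, and Hspa1a at −1.63 in CD8+ T cells and −2.88 in CD4+ T cells.

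CD4+ T cells of both libraries carried the type 2 genes that IL-33 induces, at levels above those of the libraries without IL-33, and most of these genes lay within 2-fold of each other with and without IL-2v. Fewer genes could be compared, because the class held 122 and 80 cells. Of 2951 compared, 32 were higher (1.08%) and 35 lower (1.19%), with a median of −0.05, and 46 and 25 with TMM factors (median 0.06).

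Il1rl1, encoding ST2, was 273 CPM with IL-2v and 266 CPM without (0.04, −0.30 to 0.38), against 43.5 and 33.2 CPM with PD1d/IL-2v and untransduced cells. Areg, encoding amphiregulin, was 1397 and 1091 CPM (0.35, 0.19 to 0.52), against 749 and 122 CPM. Il13 was 464 and 567 CPM (−0.29, −0.53 to −0.04), against 7.91 and 0 CPM. At equal depth Il13 was detected in 16.4% and 8.75% of CD4+ T cells, against 1.14% and 0% in the libraries without IL-33. Areg was detected in 30.3% and 18.8%, against 26.3% with PD1d/IL-2v and 6.06% with untransduced cells, so that by share of cells PD1d/IL-2v lay between the libraries with IL-33. For Il13 the direction hung on the classing, as its log2 ratio was 1.45 with cells classed after thinning. Il5, the growth factor of eosinophils, was 164 CPM in 24 cells and 451 CPM in 12 cells (−1.41, −1.74 to −1.08). A single cell of the PD1d/IL-33 library held 53.7% of that Il5, the log2 ratio was −0.67 without the top cell of each library and −0.34 after classing of thinned cells, and at equal depth 13.1% and 12.5% of cells had it. Il5 and Il13 shared cells: with IL-2v, Il13 was in 56.3% of the 16 thinned cells with Il5 and in 10.4% of the rest, and Foxp3 was in none of those 16. Of the 8 genes of the IL-33 and type 2 list compared, 1 was lower (Il5) and none was higher, with a median of −0.14.

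Foxp3, the master factor of regulatory T cells, was 119 and 165 CPM (−0.44, −0.89 to 0.01), and was detected in 26 of 122 CD4+ T cells (21.3%, 14.4 to 29.6%) with IL-2v and in 15 of 80 (18.8%, 10.9 to 29.0%) without. With PD1d/IL-2v cells it was in 127 of 175 (72.6%) and with untransduced cells in 16 of 33 (48.5%). After thinning, the shares of the 2 libraries were 11.0% and 15.8%. None of 17 regulatory T cell genes reached 2-fold, with a median of 0.04. Ctla4 was 674 and 616 CPM (0.13, −0.10 to 0.35), against 2733 and 1799 CPM in the libraries without IL-33. Il2ra was 266 and 173 CPM (0.60, 0.21 to 0.99) and Cish 217 and 173 CPM (0.31, −0.08 to 0.72), and none of the 15 IL-2 list genes compared reached 2-fold.

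Among the genes that did, Gzmb was 359 CPM in 43 cells and 129 CPM in 17 cells (1.41, 0.99 to 1.84), and was found in 27.0% and 16.2% of cells at equal depth. Within Foxp3+ cells alone (26 and 15) it was 958 and 236 CPM (1.98). Csf2 was 106 CPM in 5 cells and 10.3 CPM in 2 cells (2.52), the amino acid carrier Slc7a5 68.6 and 7.73 CPM on 49 and 3 UMIs (a ratio of 8.87, 2.86 to 44.5), and Fabp5, a carrier of fatty acids, 167 and 38.7 CPM (1.86, 1.21 to 2.53). The early response gene Egr1 was 252 and 61.9 CPM (1.87), with 48.3% of the former in 1 cell, and came to 1.08 after classing of thinned cells. Eif4ebp1, Iigp1, Tff1 and Chchd10 had log2 ratios from 1.32 to 1.44, of which Iigp1 came to 0.90 after classing of thinned cells and Chchd10 to 0.91 with the narrower cell filter. Ccl4 (254 and 69.6 CPM, 1.73) and Ccl3 (148 and 41.3 CPM, 1.63) were higher on 7 cells of each library in the case of Ccl4, and Ccl3 came to 0.61 with cells weighted equally. Gzma (279 and 30.9 CPM) was below 20% of its level in the other cells and is set apart.

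Lower genes were led by Hdc, which makes histamine (14.0 CPM in 2 cells and 168 CPM in 6), the heat shock genes Hspa1a (77.0 and 632 CPM, −2.88, −3.28 to −2.49) and Hspa1b (98.1 and 454 CPM, −2.10) and the mRNA decay factor Zfp36 (111 and 413 CPM, −1.81, −2.18 to −1.44). Hk2 was 32.2 and 142 CPM (−1.85), opposite in sign to NK cells. Slamf1 (30.8 and 124 CPM, −1.71) and the oxidase of the endoplasmic reticulum Ero1l (185 and 480 CPM, −1.33) were lower too, the latter at −0.91 after classing of thinned cells. Ier3, Tnfsf9 and Dusp2 had log2 ratios of −2.40, −1.92 and −1.33. Tox was 49.0 and 108 CPM (−1.0, −1.58 to −0.41), and came to −0.53 without cycling cells.

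By the 2-fold rule myeloid cells showed the largest share of higher genes, among them genes of alternatively activated macrophages and of inflammatory cytokines together. Such shares are not comparable between classes, since the rule called differences of equal size unequally often. Counts were simulated with a log2 ratio of 1 in CPM itself, before 10 CPM were added. This difference was called for 9.28% of genes given it in CD8+ T cells and 22% in NK cells. In CD4+ T cells it was called for 35% and in myeloid cells for 41%. Of 3097 compared, 128 were higher (4.13%) and 52 lower (1.68%), with a median of 0.02, and 156 and 37 with TMM factors (median 0.11). The PD1d/IL-33 side rested on 45 cells and 271732 UMIs, where 1 UMI was worth 3.68 CPM.

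Ccl24, an eosinophil-attracting chemokine that IL-4 and IL-13 induce in macrophages, was 969 CPM with IL-2v (904 UMIs in 39 of 131 cells) and 3.68 CPM without (1 UMI), a ratio of 263 with an interval of 47.2 to 10415. The other day 12 libraries had 87.0 CPM with PD1d/IL-2v and none with untransduced cells. Arg1, encoding arginase 1, was 348 CPM (325 UMIs in 23 cells) and 3.68 CPM (1 UMI), a ratio of 94.7 (16.9 to 3752), with 94.1 and 115 CPM in the other libraries. At equal depth Ccl24 was detected in 25.2% (18.0 to 33.5%) and 2.22% of myeloid cells and Arg1 in 16.8% and 0 of 45, which allows up to 6.67% of cells with a UMI at that depth by the same floor (17.6% and 2.22% unthinned). They overlapped in part, with Ccl24 in 59.1% of the 22 thinned cells with Arg1 and in 18.3% of the 109 without.

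Ccl8, a monocyte attractant, was 335 CPM but in 8 cells, against 1 UMI. Retnla (64.3 CPM in 2 cells, with a log2 ratio of 0.72 without the top cell of each library) and the arginine carrier Slc7a2 (54.7 CPM) had no UMI in the PD1d/IL-33 library, at least 5.83-fold and 4.95-fold higher. Chil3, a lectin of alternatively activated macrophages and monocytes, was 1531 and 471 CPM (1.68, 1.42 to 1.95), the mannose receptor Mrc1 79.3 and 33.1 CPM (1.05, 0.23 to 1.88), and Spp1 103 and 18.4 CPM (1.99). Of the 19 macrophage and alternative activation genes compared, 13 were higher, none was lower and the median was 1.33, with medians of 1.03 to 2.05 over the alternative settings. The 13 include C1qa, C1qb and C1qc, which define C1q-high cells, and such cells held a larger share of this library. Summed over the list, levels were 5480 CPM with IL-2v and 1752 CPM without. They were 3626 CPM with PD1d/IL-2v and 5968 CPM with untransduced cells (16 myeloid cells), so that the PD1d/IL-33 library was the lowest.

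Among inflammatory mediators, Cxcl2, which draws neutrophils, was 1464 CPM in 50 cells and 280 CPM in 6 cells (2.35, 2.02 to 2.69), with higher levels still in PD1d/IL-2v and untransduced libraries (2869 and 1949 CPM). Il6 was 107 CPM in 31 cells and 11.0 CPM in 3 cells, on 100 and 3 UMIs (a ratio of 9.71, 3.23 to 47.9). Tnf was 139 and 36.8 CPM (1.67, 0.91 to 2.47), and the inflammasome sensor Nlrp3 187 and 62.6 CPM (1.44, 0.80 to 2.11). Il1b, at 3218 and 2087 CPM, differed by less (0.62, 0.49 to 0.75). Of 17 genes of the list 9 were higher and 1 lower, with a median of 1.16. The summed level of the list was 10600 CPM with IL-2v and 6275 CPM without, against 16835 CPM with PD1d/IL-2v and 20702 CPM with untransduced cells. The PD1d/IL-33 library was thus again the lowest. The lower gene, Ccl4 (563 and 1207 CPM, −1.09), stood at 0.022 without cycling cells. Ccl5 (729 and 84.6 CPM) and Tnfrsf9 were below 20% of their level in the other cells and are set apart.

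Genes that IFN-γ induces were mixed. Cd274, encoding PD-L1, was 288 and 110 CPM (1.31, 0.80 to 1.85), Pdcd1lg2, encoding PD-L2, 84.7 and 11.0 CPM on 79 and 3 UMIs (a ratio of 7.67, 2.53 to 38.0), Gbp5 120 and 51.5 CPM (1.08), Cd40 142 and 62.6 CPM (1.06) and the GTPase Iigp1 369 and 121 CPM (1.53). The chemokine Cxcl9 was 243 and 258 CPM (−0.08, −0.45 to 0.31) and the class II gene H2-Ab1 3879 and 4181 CPM (−0.11, −0.20 to −0.01). Gbp5 and Cd40 came to 0.71 and 0.75 with the narrower cell filter. Of 28 compared, 5 were higher and none lower, with a median of 0.33. None of 16 type I interferon-stimulated genes reached 2-fold (median 0.10), and of 13 monocyte genes 1 was lower, Thbs1 (322 and 659 CPM, −1.01).

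Within the subsets, Ccl24 and Arg1 were chiefly in C1q-high cells, at 4009 and 1504 CPM with IL-2v against 44.1 CPM each, 1 UMI, in the 5 such cells without. In C1q-low cells (77 and 28) Ccl24 was 147 CPM and Arg1 74.2 CPM with IL-2v and both had no UMI without, at least 7.22-fold and 3.65-fold higher, so that the direction was alike outside the C1q-high cells. There Cxcl2 was 1880 and 514 CPM (1.85), Il6 163 and 20.3 CPM, and H2-Ab1 3206 and 913 CPM (1.80). In dendritic cells (22 and 12) Fscn1, a marker of mature dendritic cells used to class them, was 1832 and 79.0 CPM, Fabp5 4086 and 88.9 CPM, Cd274 316 and 49.4 CPM (2.46), and H2-Ab1 4130 and 8516 CPM (−1.04). Over the whole class Fscn1 was 405 CPM in 14 cells and 29.4 CPM in 2 cells, and Fabp5 1220 and 191 CPM (2.61, 2.23 to 3.02). Myeloid Fabp5 was 798 CPM with PD1d/IL-2v and 1278 CPM with untransduced cells.

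**Figure D4:**
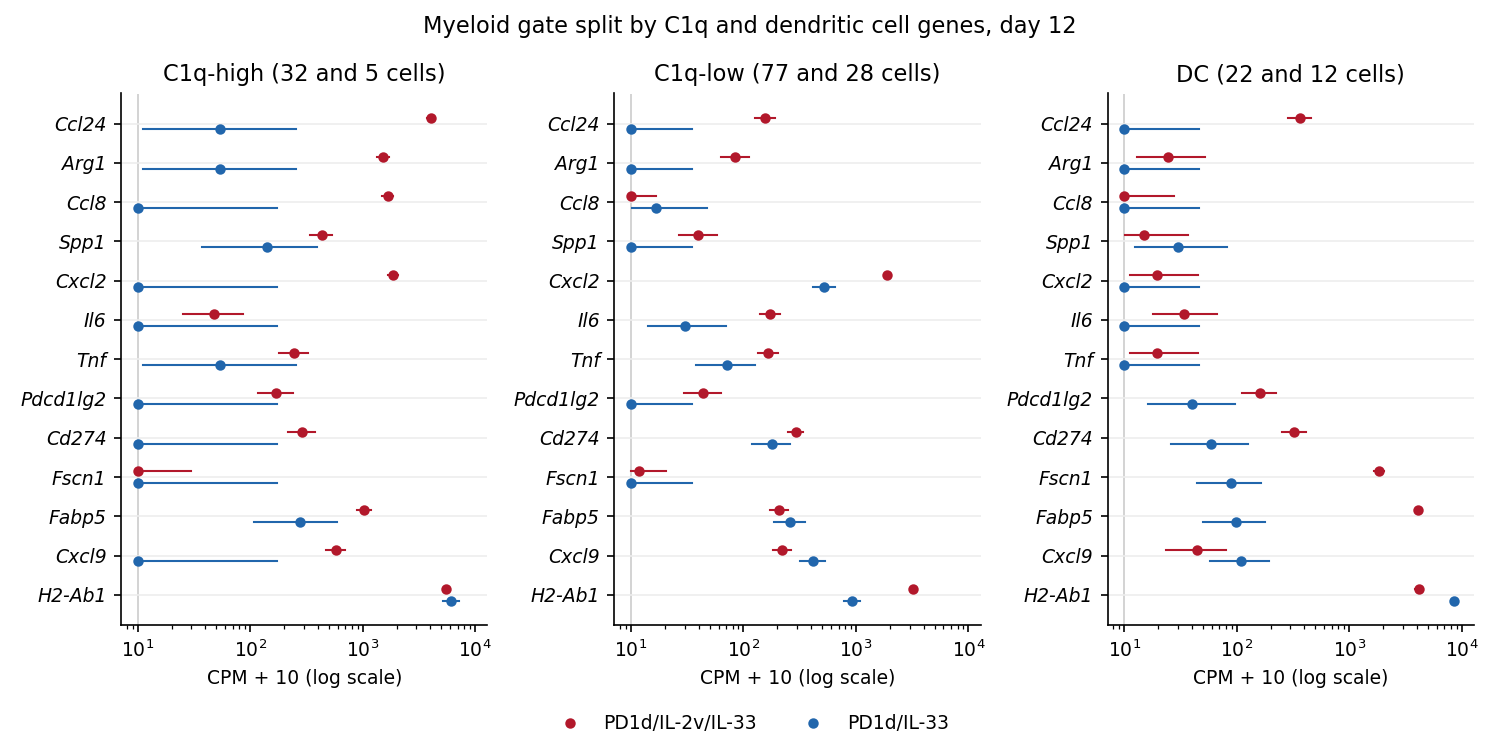
Levels of 13 genes in C1q-high cells (32 with IL-2v and 5 without), C1q-low cells (77 and 28) and dendritic cells (22 and 12). The x axis is CPM plus 10 on a log scale with 95% Poisson intervals. Ccl24 lies at 4009 CPM in C1q-high cells with IL-2v and at 44.1 CPM, a single UMI, without.

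Genes lower in myeloid cells with IL-2v were again led by heat shock genes, Hspa1b at 169 and 707 CPM (−2.0, −2.30 to −1.70) and Hspa1a at 180 and 611 CPM (−1.71, −2.01 to −1.40). NK cells did not share this, with Hspa1b at 63.6 CPM with IL-2v and 62.8 CPM without and Hspa1a at 67.5 and 47.6 CPM. In myeloid cells further genes were lower. Gpr183, an oxysterol receptor that positions dendritic cells, was 35.4 and 166 CPM (−1.95, −2.52 to −1.37), the lysosomal thioesterase Ppt1 102 and 357 CPM (−1.71, −2.11 to −1.32), and Cd24a 105 and 324 CPM (−1.54, −1.94 to −1.13), while Cst3, one of the genes that define the class, was 6070 and 13075 CPM. Gclm, Rab7b, Dynlt1c and Ripk1 had log2 ratios from −1.56 to −1.43. Areg (−1.76), Creld2 (−1.76) and Ckb (−1.54) did not keep their difference, since without the top cell of each library Areg came to 0.93 and Creld2 to −0.57, and without cycling cells Ckb came to −0.53.

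**Figure D5:**
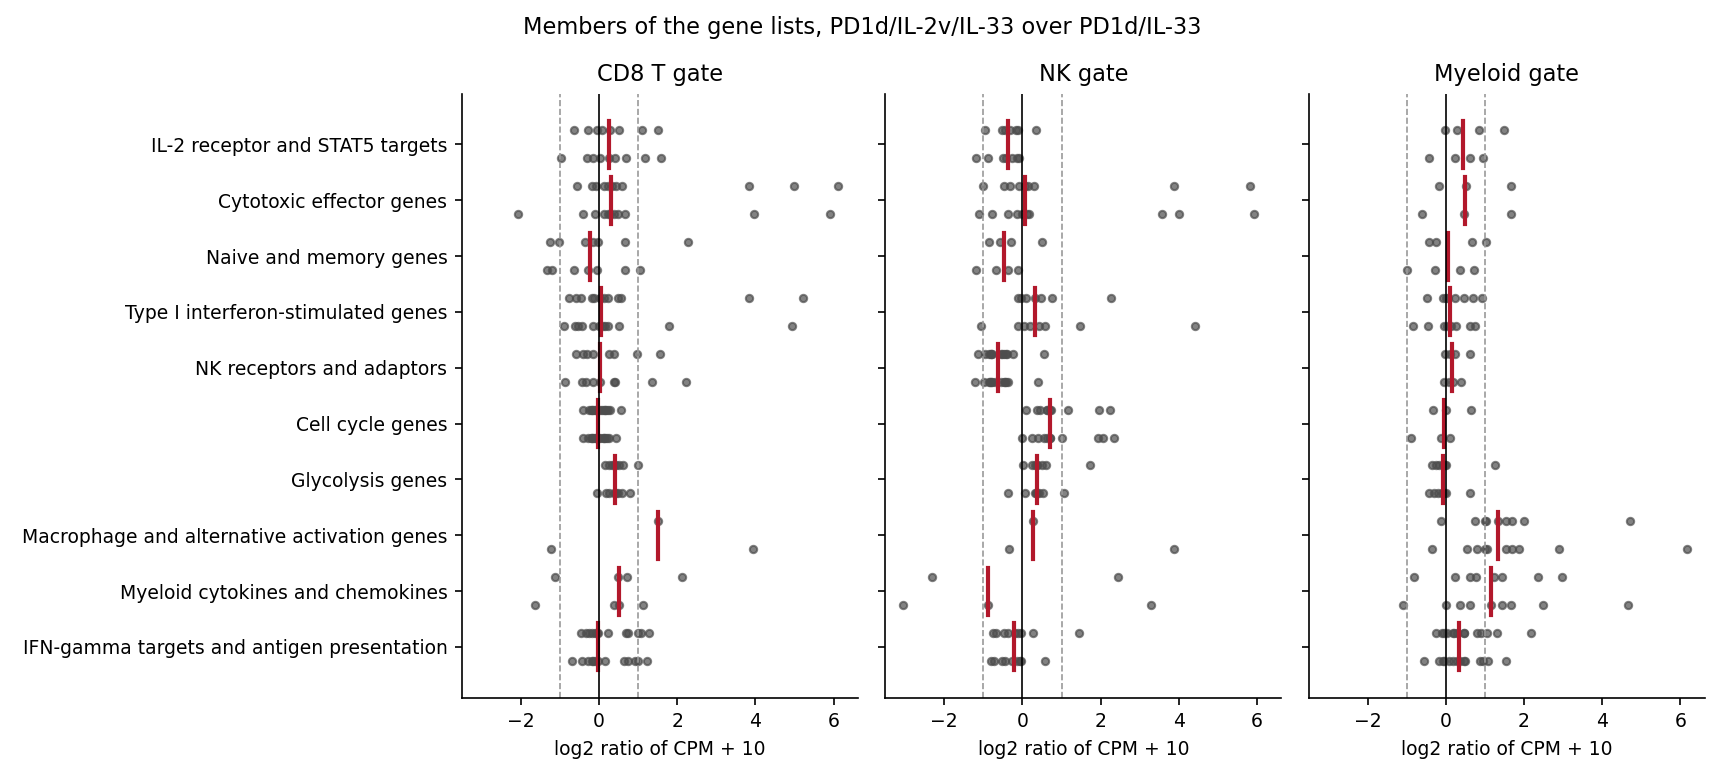
Log2 ratios of the compared members of 10 gene lists in CD8+ T, NK and myeloid cells, each point a gene and each red line the median of the list. The medians of the macrophage and alternative activation list and of the cytokine and chemokine list in myeloid cells are 1.33 and 1.16, that of cell cycle genes in NK cells is 0.71, and that of the IL-2 list in CD8+ T cells is 0.26.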

How the data were processed

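The deposited matrix holds raw UMI counts of 27998 genes in 15700 barcodes from 8 libraries. Per the submitters' notes the authors used bcl2fastq and Cell Ranger 2.2.0 with GRCm38 and aggregated the libraries. Whether depth was equalised there is not given in the sources used here. Barcodes were assigned to libraries by suffix and the aggregation table. Cells passing the stated filters were given 1 class each by marker UMIs, and counts were summed per class and library. Ratios use CPM plus 10, genes with at least 50 UMIs in both libraries together, and a call at log2 ratios of 1 or −1. Intervals at 95% cover counting error only, and are Poisson for CPM and Clopper-Pearson for shares. Those of log2 ratios combine the Poisson limits of both libraries. Those of plain ratios of CPM are exact conditional intervals. Thinning drew 2000 UMIs per cell. Genes named are the 12 highest and 12 lowest per class and members of 20 fixed lists, leaving out mitochondrial, ribosomal protein, receptor-segment and predicted genes. Members, lists and tests were chosen with earlier results of these data known. Subsets and pairs of genes were picked after values were seen. Scrublet called 0.300% and 0.260% of cells and was not usable, so that doublets were kept. On simulated Poisson counts the intervals of log2 ratios held the true value for 95.5 to 97.5% of changed genes per class. Those counts lacked variation between cells and followed the model of the intervals, so this checks the calculation and not the coverage on real counts. Alternatives were 13, with 2 more chosen after seeing the data. Tools were Python 3.11.15, numpy 2.4.6, scipy 1.17.1, pandas 2.3.3, scanpy 1.11.5, R 4.3.3 and edgeR 4.0.16 (TMM factors only).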

Additional observations from a re-analysis of the deposited data

How the results depend on the processing

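No paired analysis was possible because each group is a single library, and for the same reason no library could be left out. Over the genes named by rule, 1244 of 1262 values under alternative settings stayed past 2-fold and 1 turned its sign, and with the called list members included 2326 of 2515 stayed and 4 turned. These totals say little of stability, since the genes were picked for large ratios. Minima of 10 and 200 UMIs cannot change a ratio, and a pseudocount of 1 CPM can only enlarge it. With the narrower cell filter alone, 75 of 81 and 118 of 162 values stayed past 2-fold. With cells classed after thinning to 2000 UMIs, CD8+ T cells were 38.4% and 43.5%, NK cells 12.8% with IL-2v, and CD4+ T cells 4.92% and 7.42%. With the narrower filter of the study's later experiment (at most 3000 genes and 12000 UMIs per cell, no fewer than 400 and 500, and mitochondrial and ribosomal shares below 5% and 50%), CD8+ T cells were 36.4% and NK cells 15.6% with IL-2v, 20 genes were lower in CD8+ T cells, and 31 were higher and 28 lower in NK cells. Myeloid cells were 10.5% with IL-2v at a myeloid minimum of 0.2% of UMIs, and 5.53% and 3.78% at 1%. A pseudocount of 1 CPM gave 288 higher and 182 lower in CD8+ T cells, 158 and 213 in NK cells, 51 and 57 in CD4+ T cells, and 82 lower in myeloid cells. A minimum of 200 UMIs gave 67 higher in CD8+ T cells, 26 and 25 in NK cells, 5 and 9 in CD4+ T cells, and 36 and 18 in myeloid cells, as fewer genes were compared. A minimum of 10 UMIs gave 118 lower in NK cells, 124 and 142 in CD4+ T cells, and 334 and 185 in myeloid cells. TMM factors gave 29 lower in CD8+ T cells and 149 and 25 in NK cells. Without cycling cells 18 genes were higher in CD4+ T cells, and the log2 ratio of Ccl4 in myeloid cells was 0.022. In the 2 settings chosen after seeing the data, ratios of cells classed after thinning gave 37 lower in NK cells and 15 higher in CD4+ T cells, with Stmn1 there at −0.19, and leaving out the top cell of each gene gave 218 higher and 30 lower in myeloid cells, with Areg at 0.93 and Gzma at −0.18. Leaving out the top cell took it from both sides and kept the totals, which weighs more on the side with fewer cells. In myeloid cells this moved the median log2 ratio over all genes from 0.02 to 0.16, so that its counts are not comparable with the others. The cause of the remaining shifts was not tested. Depth limits the myeloid and CD4+ T cell values most, since 1 UMI was worth 3.68 and 2.58 CPM in the PD1d/IL-33 library.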

Other observations

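T cells that carried CD3 but neither a clear CD4 nor a clear CD8 call (241 with IL-2v and 114 without) were left out of the comparisons above, and genes in them were picked after their values were seen. Il13 was 425 CPM in 43 of these cells with IL-2v and 38.1 CPM in 5 cells without, a log2 ratio of 3.18. Areg was 1065 and 312 CPM (1.74) and Il1rl1 188 and 81.8 CPM (1.11), while in CD4+ T cells Il13 was 464 and 567 CPM, with a log2 ratio of 1.45 after classing of thinned cells. Gzmf was 683 CPM with IL-2v and at no UMI without, and Cxcr3 30.7 and 114 CPM (−1.61), as in the CD8+ T cells. The difference between the classes was not tested.

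Cells that met no marker rule (103 and 28) held the myeloid genes too. Ccl24 was 1694 CPM in 34 cells with IL-2v and 33.2 CPM in 1 cell without, and Arg1 was 761 CPM in 30 cells with IL-2v and at no UMI without. Which cells these were was not tested.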
